A study of Mus musculus with 6 samples.

Results

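The transcripts described here are those of Gzma, Gzmb, Prf1 and Ncr1, genes of cytotoxic lymphocytes, as they were measured in mouse bone marrow macrophage cultures. They were chosen by name, and all 4 were among the 714 genes of the table used here. Messenger RNA was sequenced in 6 libraries of C57BL/6 cells flushed from tibias and femurs and grown for 6 days with 10 ng/ml of the myeloid growth factor GM-CSF. Of these, 3 libraries were wild type, and the other 3 had the genotype SENP8+/-, with 1 changed copy of Senp8, whose product is an enzyme that takes the small modifier NEDD8 off other proteins. The sample titles call the second group KO, while the genotype label gives the heterozygote, and it is written Senp8+/- below. All 6 libraries received streptavidin beads coated with biotinylated mouse CD47, a surface protein that restrains engulfment by macrophages, with RNA taken 24 h later. No culture without beads was analysed here, and nothing in the labels says that the cultures were sorted, or that libraries of a genotype came from separate mice or cultures. The spread behind the p-values is that of these libraries and could be technical only.

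The table holds genes that the authors selected on the genotype comparison itself, with p-values up to 0.0499 and log2 fold changes of 1.0001 or more in size, so every test of the genotypes on these rows is a description. Values are normalised counts, which are reads divided by a size factor for each library. Over the 714 genes there were 205957 to 217286 reads in the Senp8+/- libraries and 439026 to 491156 in the wild-type libraries. These sums are not library depths, which are unknown here. Wild-type replicate 3 stood apart from the other wild-type libraries. Its counts differed from those of replicates 1 and 2 by a chi-square of 70.4 and 116 per degree of freedom, against 10.5 to 19.3 for the other pairs within a genotype. The genotype labels could not be compared with the level of Senp8, which was not analysed here. Of 15 macrophage genes only C1qa and C1qc had rows, so the cell type label was checked no further.

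Cytotoxic lymphocytes, chiefly natural killer (NK) cells and CD8 T cells, kill target cells with the contents of secretory granules. Perforin, the product of Prf1, forms pores in the target membrane, and granzymes A and B, the products of Gzma and Gzmb, are serine proteases that enter through its action. NKp46, the product of Ncr1, is an activating receptor used as a marker of NK cells and related innate lymphoid cells. Lymphocytes of this kind are a main source of interferon-gamma, and Cxcl9 encodes a chemokine that macrophages make in response to interferon-gamma and that draws lymphocytes bearing the receptor CXCR3. Gzmb is also expressed by some plasmacytoid dendritic cells, mast cells and basophils.

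The 4 genes lie on 4 chromosomes, so they do not form a single locus. In GRCm38 Ncr1 (ENSMUSG00000062524) runs from 4337724 to 4345164 on the plus strand of chromosome 7 and Prf1 (ENSMUSG00000037202) from 61297833 to 61304680 on the plus strand of chromosome 10. Gzma (ENSMUSG00000023132) runs from 113093825 to 113100981 on the minus strand of chromosome 13 and Gzmb (ENSMUSG00000015437) from 56258838 to 56262260 on the minus strand of chromosome 14. No other gene of the GENCODE M21 annotation overlapped any of them, or Cxcl9 (chromosome 5, 92321347 to 92328079, minus strand). The longest annotated transcripts have 7 exons for Ncr1, 3 for Prf1, 6 for Gzma and 5 for Gzmb.

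The 250 bases before the RefSeq start (GRCm38.p6) of each gene are shown because the 4 genes and Cxcl9 all had lower values in Senp8+/-. Capitals mark matches on either strand to 4 short motifs: TTCNNNGAA, bound by STAT factors after interferon-gamma; GAAA, any 2 bases and GAAA again, bound by interferon regulatory factors; GGTGTGA, bound by T-box factors; and TGTGGT, bound by RUNX factors. The windows are chr7:4337465-4337714 (plus strand) for the first of the Ncr1 starts, chr10:61297586-61297835 (plus) for Prf1, chr13:113100982-113101231 (minus) for Gzma, chr14:56262335-56262584 (minus) for Gzmb and chr5:92328080-92328329 (minus) for Cxcl9.
Ncr1: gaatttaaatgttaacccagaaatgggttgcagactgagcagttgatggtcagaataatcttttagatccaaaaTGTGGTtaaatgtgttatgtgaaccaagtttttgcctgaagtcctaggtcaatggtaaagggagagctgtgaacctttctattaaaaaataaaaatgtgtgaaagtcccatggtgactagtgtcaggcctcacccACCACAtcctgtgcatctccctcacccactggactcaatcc
Prf1: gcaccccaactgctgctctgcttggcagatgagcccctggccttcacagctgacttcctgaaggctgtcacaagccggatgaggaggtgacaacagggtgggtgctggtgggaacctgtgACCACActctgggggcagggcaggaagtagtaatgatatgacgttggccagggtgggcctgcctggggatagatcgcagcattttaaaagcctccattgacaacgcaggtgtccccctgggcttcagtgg
Gzma: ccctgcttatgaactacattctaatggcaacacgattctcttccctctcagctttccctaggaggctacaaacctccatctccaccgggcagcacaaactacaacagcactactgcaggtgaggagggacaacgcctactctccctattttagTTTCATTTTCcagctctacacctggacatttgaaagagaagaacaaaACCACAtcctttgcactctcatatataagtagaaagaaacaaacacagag
Gzmb: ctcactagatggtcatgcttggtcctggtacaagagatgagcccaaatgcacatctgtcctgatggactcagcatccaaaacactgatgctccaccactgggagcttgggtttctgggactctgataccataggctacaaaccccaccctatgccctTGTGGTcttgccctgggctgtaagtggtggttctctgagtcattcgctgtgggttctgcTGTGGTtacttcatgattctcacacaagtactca
Cxcl9: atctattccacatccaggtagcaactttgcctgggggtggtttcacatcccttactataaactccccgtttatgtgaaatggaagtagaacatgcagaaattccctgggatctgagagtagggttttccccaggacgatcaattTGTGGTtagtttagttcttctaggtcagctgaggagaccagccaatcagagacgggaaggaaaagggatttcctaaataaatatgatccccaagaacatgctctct

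Each of the 5 windows held TGTGGT or its complement ACCACA, which 14.0% of 32851 such mouse windows held. Gzmb had it at 93 to 88 and at 34 to 29 bases before the start, Gzma at 50 to 45, Prf1 at 130 to 125 and Cxcl9 at 106 to 101, and Ncr1 had matches at 176 to 171 and 41 to 36. The Gzma window also held TTTCATTTTC, the complement form of the paired GAAA motif, 97 to 88 bases before the start. That motif was present in 2.98% of windows, TTCNNNGAA in 7.02% and GGTGTGA in 3.33%. The last 2 were in none of the 5 windows, which says only that these letters are not there. No binding was measured in this study.

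All 4 lymphocyte transcripts were present at low levels in the wild-type cultures and nearly absent from the Senp8+/- cultures. Over the 3 wild-type libraries they had 294 reads in all, and over the 3 Senp8+/- libraries 11 reads. Each fell in the authors' deposited table (adjusted p under 0.05). Genes called lower there make up 1.65% of the 14694 genes in the authors' correction (2.01% in either direction) and 33.9% of the 714 rows, and because the rows were selected on this comparison, nothing is read from the count of members. In bulk libraries, fewer cells of a type and less RNA per cell cannot be told apart.

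Ncr1, the NK cell receptor, had the lowest level of the 4. Its normalised counts were 11.9, 12.7 and 6.12 in wild-type replicates 1, 2 and 3, from 12, 12 and 7 reads, and there were 0 reads in each Senp8+/- library. The wild-type mean was 10.2 ± 3.58 (SD, n = 3, as for all means below), at least 3.37-fold above the Senp8+/- cultures when their level is set to a floor of 3 reads per library (a mean of 3.03 normalised counts), or 4.05-fold without wild-type replicate 3. The floor stands for the upper limit that a count of 0 allows in a library, 2.79 to 3.21 normalised counts for the Senp8+/- libraries, below which a transcript may go undetected. The 95% Poisson intervals used below have 2 sides, and for 0 reads theirs reach higher, to 3.43 to 3.95 normalised counts. Both cover counting error only. In the authors' deposited table Ncr1 had an adjusted p of 0.00679.

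Prf1, the pore-forming protein, had 17.8, 24.3 and 16.6 normalised counts in the wild-type libraries (18, 23 and 19 reads). In the Senp8+/- libraries it had 4.12, 0.930 and 0 (4, 1 and 0 reads). The genotypes did not overlap, as was so for 89.4% of the 714 rows. The lowest wild-type value was 4.03 times the highest Senp8+/- value. Prf1 fell from 19.6 ± 4.13 to 1.68 ± 2.16, an 11.6-fold difference that rests on 5 Senp8+/- reads. Replicate 1 held 4 of them, and without it the Senp8+/- mean was 0.465 and the difference 42.1-fold. In the authors' deposited table Prf1 had an adjusted p of 0.00794.

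The granzymes were the most abundant of the 4 per length of transcript. Gzmb had 37.6, 51.7 and 27.1 normalised counts in wild type (38, 49 and 31 reads) and 2.06, 2.79 and 1.07 in Senp8+/- (2, 3 and 1 reads). The lowest wild-type value was 9.70 times the highest Senp8+/- value, and the means fell 19.7-fold, from 38.8 ± 12.4 to 1.97 ± 0.863 (adjusted p = 5.03e-06 in the authors' deposited table). Gzma had 39.6, 39.1 and 6.99 in wild type (40, 37 and 8 reads) and 0 reads in each Senp8+/- library. Its wild-type mean of 28.6 ± 18.7 was at least 9.42-fold above the same floor (adjusted p = 5.82e-05 in the authors' deposited table). Without wild-type replicate 3 this bound was 12.98-fold, and without replicate 2 it was 7.69-fold. It takes the wild-type mean as measured. In replicate 3 alone the Poisson interval of Gzma, 3.02 to 13.8 normalised counts, reached down to about the floor. Gzma and Ncr1 were the members with 0 reads in every Senp8+/- library, as were 3.22% of the rows.

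**Figure D1:**
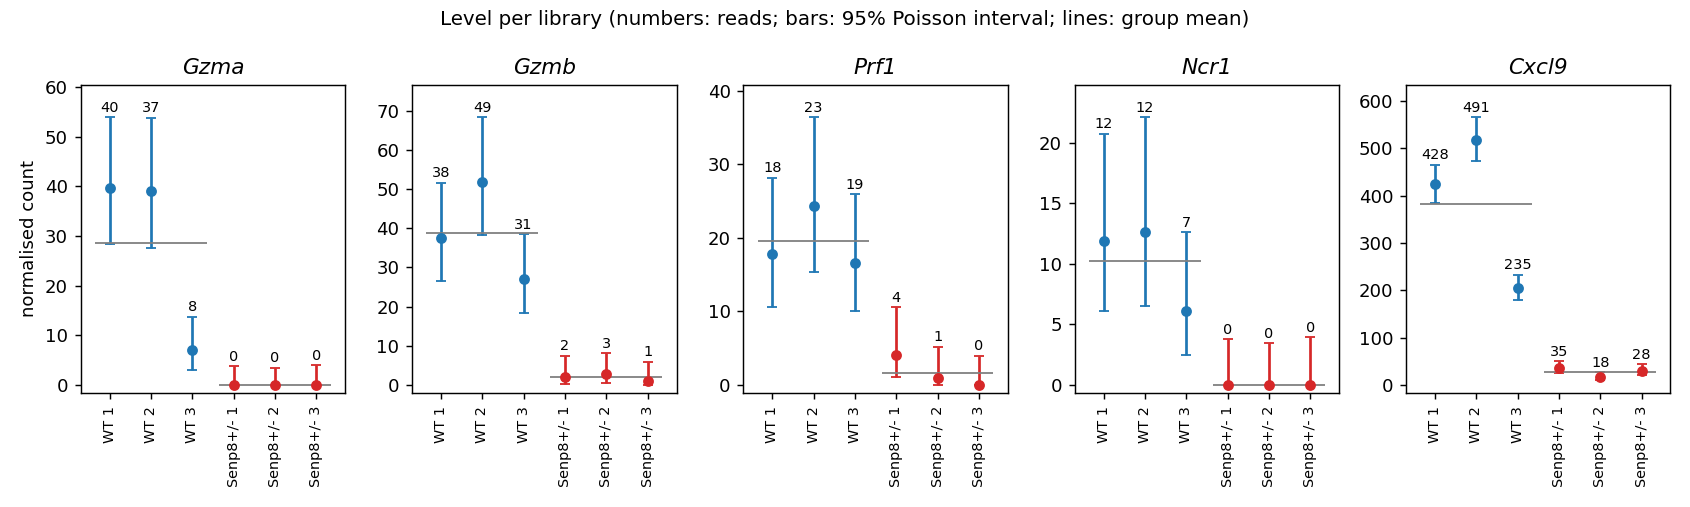
Normalised counts of the 4 lymphocyte genes and Cxcl9 in each library (x axis), wild type in blue and Senp8+/- in red, on a separate linear y axis per gene. Points are library values, bars are 95% Poisson intervals from the recovered reads, printed numbers are reads and grey lines are group means. Every wild-type value lies above every Senp8+/- value, and wild-type replicate 3 is the lowest wild-type library in each panel. The genotypes do not overlap in 89.4% of all 714 rows.

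Divided by transcript length, the wild-type means were 28.4 ± 18.6 normalised counts per kb for Gzma, 27.0 ± 8.61 for Gzmb, 7.57 ± 1.60 for Prf1 and 6.64 ± 2.32 for Ncr1. The ranges over the libraries were 6.95 to 39.4, 18.9 to 36.0, 6.42 to 9.40 and 3.97 to 8.23 per kb in that order. Gzmb thus stood above Prf1 and Ncr1 in every wild-type library, while Gzma and Gzmb, and Prf1 and Ncr1, did not differ beyond their spread. Cxcl9 stood at 127 ± 53.2 per kb, with a range of 68.1 to 172 that lies above those of all 4.

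The genotype difference was also described with limma on log2(normalised count + 1), fitted to all 714 rows with Benjamini-Hochberg adjustment over 14694 genes. The log2 difference ± SE, Senp8+/- minus wild type, was -3.74 ± 0.44 for Gzmb, with an adjusted p of 0.00119 from limma. It was -3.24 ± 0.57 for Prf1, with an adjusted p of 0.0141 from limma. For Gzma and Ncr1 it was -4.56 ± 0.62 and -3.43 ± 0.48, with adjusted p of 0.00275 and 0.00316 from limma, values that depend on the added 1 because the Senp8+/- libraries were at 0. All 4 genes passed by this test, which called 20.9% of the 714 rows lower. Those calls amount to 1.01% of the 14694 genes of the adjustment, but genes outside the 714 rows were not fitted. The 3 values of each genotype did not overlap for any of the 4, and this held for 89.4% of the 714 rows. Only 2 of the 4, Gzmb and Ncr1, passed without Senp8+/- replicate 2 and 0 without wild-type replicate 1 (adjusted p of 0.0770 for Gzmb, 0.0912 for Ncr1, 0.115 for Gzma and 0.217 for Prf1 in limma), when limma called 37 and 11 rows in all. Gzma missed the threshold without Senp8+/- replicate 2 at an adjusted p of 0.0553 in limma. Prf1 passed without Senp8+/- replicate 1 only, and without any other single library its adjusted p in limma was 0.0560 to 0.217.

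Cxcl9 was lower in the same libraries. It had 424, 518 and 205 normalised counts in wild-type replicates 1, 2 and 3 (428, 491 and 235 reads) and 36.0, 16.7 and 30.0 in Senp8+/- replicates 1, 2 and 3 (35, 18 and 28 reads). The log2 difference of Cxcl9 in limma was -3.71 ± 0.42 (SE; adjusted p = 0.00106, or 0.0912 without wild-type replicate 1), and the lowest wild-type value was 5.699 times the highest Senp8+/- value. The genotypes form separate clusters for Cxcl9 and for the 4 genes, so no correlation over the 6 libraries is given, and 3 libraries per genotype are too few to test a relation within one.

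**Figure D2:**
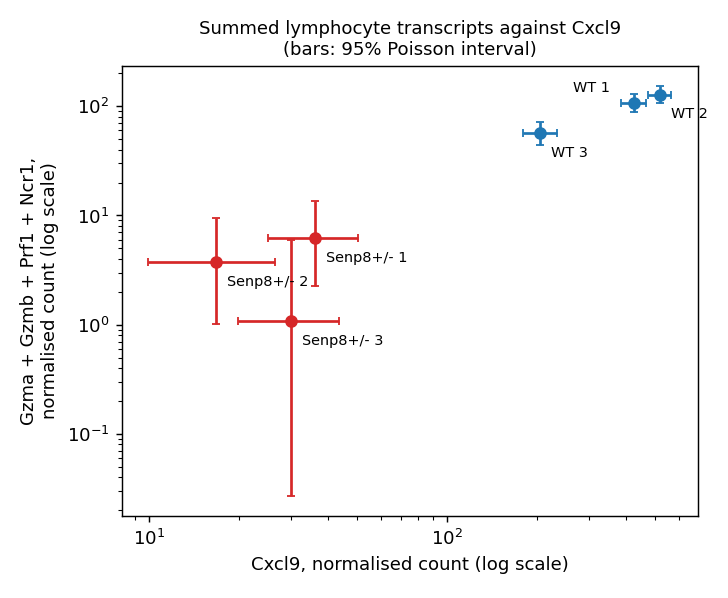
Summed normalised counts of Gzma, Gzmb, Prf1 and Ncr1 (y axis, log scale) against the normalised count of Cxcl9 (x axis, log scale), 1 point per library with 95% Poisson intervals on both axes. The wild-type libraries (blue) lie at 56.8 to 128 on the y axis and the Senp8+/- libraries (red) at 1.07 to 6.18, as 2 separate clusters.

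Among the wild-type libraries the sum of the 4 genes was in step with Cxcl9. The sum was 107, 128 and 56.8 normalised counts in replicates 1, 2 and 3, so both were highest in replicate 2 and lowest in replicate 3. Per 100 Cxcl9 reads there were 25.2 reads of the 4 genes in replicate 1 (exact 95% interval 20.2 to 31.2), 24.6 in replicate 2 (20.03 to 30.1) and 27.7 in replicate 3 (20.7 to 36.5). The 3 intervals overlapped, with that of replicate 3 reaching higher than the others, while Cxcl9 itself differed 2.52-fold between replicates 2 and 3.

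Among the Senp8+/- libraries the order was not the same. The sum was 6.18, 3.72 and 1.07 normalised counts in replicates 1, 2 and 3 (6, 4 and 1 reads), and Cxcl9 was lowest in replicate 2. Reads of the 4 genes per 100 Cxcl9 reads came to 17.1 (5.89 to 41.2), 22.2 (5.47 to 67.5) and 3.57 (0.0873 to 21.6), and each interval overlapped those of the wild-type libraries. Pooled over the libraries of a genotype, the ratio was 13.6 in Senp8+/- (11 against 81 reads, interval 6.52 to 25.6) and 25.5 in wild type (294 against 1154 reads, 22.3 to 29.0). These 2 intervals overlapped, and a difference in the ratio between the genotypes was not tested. By group means, the sum of the 4 genes was 26.6-fold lower in Senp8+/- and Cxcl9 13.9-fold.

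The 4 genes did not share a fixed proportion among the wild-type libraries. Gzma came to 105 reads per 100 Gzmb reads in replicate 1 (exact 95% interval 65.8 to 169), 75.5 in replicate 2 (47.9 to 118) and 25.8 in replicate 3 (10.2 to 57.4). The intervals of replicates 1 and 3 did not overlap. Prf1 per 100 Gzmb reads was 47.4, 46.9 and 61.3, and Ncr1 per 100 Gzmb reads was 31.6, 24.5 and 22.6, with intervals that overlapped in every pair of libraries. Of the 4 genes, Gzma thus differed most in replicate 3. Its level differed 5.67-fold between the highest and lowest wild-type library, against 1.91-fold for Gzmb, 1.46-fold for Prf1 and 2.07-fold for Ncr1. Replicate 3 differed from replicates 1 and 2 over the whole table, however. With 1 added, log2 ratios of replicate 3 to their mean ran from -3.41 to 3.31 over the 714 rows. The ratio was -2.34 for Gzma (a transcript of 1006 bases), -0.70 for Gzmb (1436) and -0.90 for Ncr1 (1540). It was -0.33 for Prf1 (2584) and -1.19 for Cxcl9 (3016). A link to transcript length was not tested.

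Set against Cxcl9 singly, Gzma and the other granzyme went opposite ways in replicate 3. Gzma reads per 100 Cxcl9 reads were 9.35, 7.54 and 3.40 in wild-type replicates 1, 2 and 3, and Gzmb reads were 8.88, 9.98 and 13.2. Prf1 reads were 4.21, 4.68 and 8.09 and Ncr1 reads 2.80, 2.44 and 2.98. The even ratio of the sum thus held a lower share of Gzma and higher shares of Gzmb and Prf1 in replicate 3, although only for Gzma in replicates 1 and 3 did the intervals come close to separating (6.58 to 12.9 against 1.45 to 6.82).

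**Figure D3:**
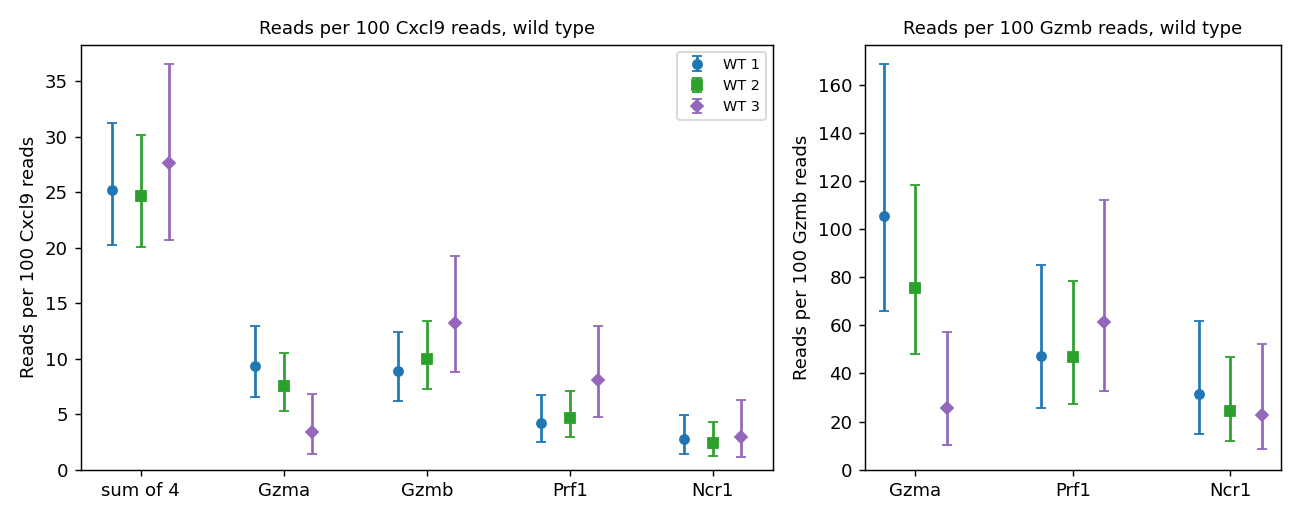
Reads of the 4 genes and of their sum per 100 Cxcl9 reads (left) and reads of Gzma, Prf1 and Ncr1 per 100 Gzmb reads (right) in the 3 wild-type libraries, with exact 95% intervals. The sum per 100 Cxcl9 reads lies between 24.6 and 27.7 in all 3 libraries, while Gzma per 100 Gzmb reads is 105 in replicate 1 and 25.8 in replicate 3.

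Wild-type replicate 3 was the lowest wild-type library for 4 of the 4 genes, and for 43.4% of the 714 rows. The full order seen for Cxcl9, with replicate 2 highest and replicate 3 lowest, recurred for Gzmb, Prf1 and Ncr1 and for 26.8% of the rows. For each of these 3 genes the Poisson intervals of the wild-type libraries overlapped in every pair, those of Gzmb in replicates 2 and 3 only just (38.27 to 68.4 and 18.4 to 38.44), so their order was not resolved at this depth. Other interferon-gamma response genes did not all follow Cxcl9. Of the 28 others with rows, 16 were lowest in replicate 3 (57.1%) and 10 were highest there. Of all 714 rows, 251 were highest there, which is a similar share. Ciita, the regulator of MHC class II genes, and Gbp4, a guanylate-binding protein, both chosen after their values were seen, were highest in replicate 3. Ciita had 384, 209 and 640 normalised counts in wild-type replicates 1, 2 and 3, and Gbp4 had 154, 136 and 323.

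**Figure D4:**
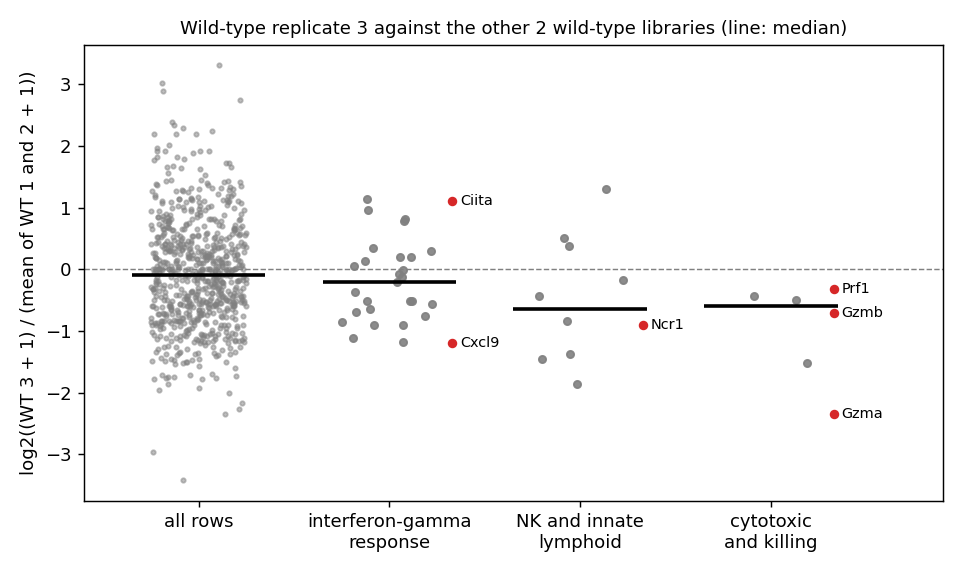
Log2 ratio of wild-type replicate 3 to the mean of wild-type replicates 1 and 2, each with 1 added, for all 714 rows and for 3 gene lists. Points are genes, horizontal lines are medians and labelled genes are in red. The medians are -0.09 for all rows, -0.21 for interferon-gamma response genes, -0.63 for NK and innate lymphoid genes and -0.60 for cytotoxic genes, with Gzma at -2.34, Cxcl9 at -1.19 and Ciita at 1.11.

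The gene lists below are read against the whole table, in which 79.7% of the 714 rows were lower in Senp8+/- and 33.9% were called lower. Of 28 genes in a list of granule and killing genes, 6 had rows, all lower in Senp8+/-, and 3 of the 6 are Gzma, Gzmb and Prf1 themselves. The 4 called were Gzma, Gzmb, Prf1 and Cst7, the gene of cystatin F, an inhibitor of the protease that activates granzymes. Cst7 had 59.4, 83.4 and 52.4 normalised counts in wild type and 11.3, 14.0 and 12.9 in Senp8+/-, and fell 5.12-fold. Gzmc, another granzyme, stood at 17.8, 15.8 and 5.24 in wild type and at 2.06, 0.930 and 1.07 in Senp8+/- and was not called (adjusted p = 0.0672 in the authors' deposited table). It belongs to a cluster of close copies, so its reads are uncertain. Nkg7, a granule membrane protein, stood at 14.9, 25.3 and 14.0 in wild type and at 2.06, 1.86 and 7.50 in Senp8+/- and was not called either. Leaving out the 4 genes, the 3 other rows had a median log2 ratio of -2.36, against -1.44 over all 714 rows, and a summed level of 71.6 to 125 in wild type and 15.4 to 21.4 in Senp8+/-. In these medians a genotype with 0 reads is set to the floor.

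Of 28 NK and innate lymphoid genes 10 had rows, all lower, and 4 fell, Ncr1, Il2rb, Cd244a and Klrk1. The share called is close to the 33.9% of all rows. Il2rb, the receptor chain shared by IL-2 and IL-15, had 56.5, 45.4 and 66.4 normalised counts in wild type and 11.3, 15.8 and 12.9 in Senp8+/-. Klrk1, the activating receptor NKG2D, had 41, 54 and 41 reads in wild type and 16, 3 and 14 in Senp8+/-. Cd244a, the receptor 2B4, had 63.4, 80.2 and 63.8 normalised counts in wild type and 22.6, 31.6 and 24.6 in Senp8+/-. These 3 genes had reads in every Senp8+/- library, where Ncr1 and Gzma had 0. The 9 rows other than Ncr1 had a median log2 ratio of -2.07 and a summed level of 204 to 226 in wild type and 52.5 to 60.5 in Senp8+/-.

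The 6 NK rows that were not called had few reads. Klrd1, the receptor chain CD94, had 15, 11 and 8 reads in wild type and 2, 2 and 1 in Senp8+/-. Klra7, a Ly49 receptor, had 7, 5 and 2 reads in wild type and 0, 1 and 0 in Senp8+/-. Klra8, another Ly49 receptor, had 1, 10 and 1 reads in wild type and Klrg1, an inhibitory receptor, 3, 5 and 1, both with 0 in every Senp8+/- library. For Klra8 and Klrg1 the wild-type means of 4.14 and 3.04 are close to the floor and rest on replicate 2, without which they were 0.932 and 1.92. The Ly49 genes are close copies of each other, so their reads are uncertain. Tbx21, the transcription factor T-bet, had 7, 1 and 13 reads in wild type and 0, 0 and 1 in Senp8+/-, and Il18rap, a chain of the IL-18 receptor, had 12, 9 and 18 against 0, 8 and 1. Tbx21 and Il18rap were highest in wild-type replicate 3, where the 4 genes were lowest, as were 251 of all 714 rows highest there. With so few reads the order of the wild-type libraries is uncertain for both.

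Of 26 T cell genes 4 had rows, all lower and 2 called, against 79.7% and 33.9% of all rows. They did not include a chain of the T cell receptor or of CD3. Cd28, a costimulatory receptor, fell from 77.2, 118 and 143 normalised counts in wild type to 27.8, 34.4 and 24.6 in Senp8+/-. Thy1, a surface protein of T cells and also of stromal cells, fell from 35.7, 32.7 and 23.6 to 2.06, 1.86 and 6.43, with a Senp8+/- mean of 3.45, or 1.96 without replicate 3. Cd4 stood at 23.8, 27.4 and 31.5 in wild type and 11.3, 7.44 and 10.7 in Senp8+/-. Tcf7, a T cell transcription factor, had 6, 10 and 8 reads against 0, 3 and 1. Cd4 and Tcf7 were not called. The summed level of the 4 rows was 143 to 205 in wild type and 41.2 to 46.5 in Senp8+/-. Cd28 and Cd4, unlike the 4 lymphocyte genes, were highest in wild-type replicate 3. So were 3 of the 10 NK rows and 251 of all 714 rows. For Cd4 the order rests on 24, 26 and 36 reads and is uncertain. Thy1 was lowest in wild-type replicate 3.

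**Figure D5:**
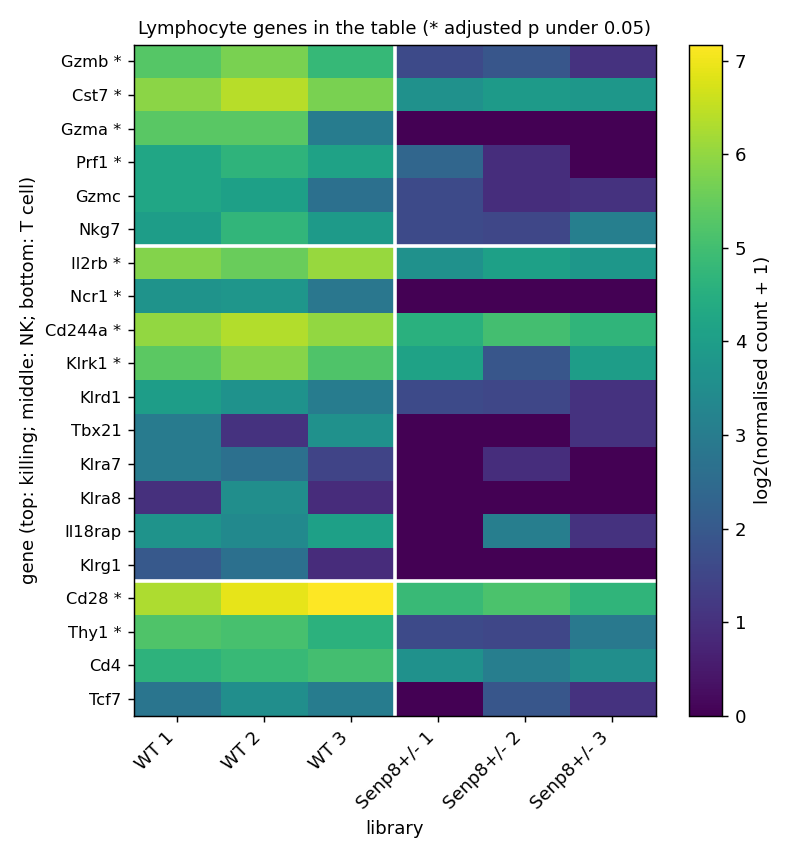
Level of the 20 rows from the lists of killing genes (top), NK and innate lymphoid genes (middle) and T cell genes (bottom) in each library, as log2(normalised count + 1) by colour. Stars mark genes with an adjusted p under 0.05 in the authors' deposited table. Gzma and Ncr1 are at 0 in all 3 Senp8+/- libraries, as are Klra8 and Klrg1, while Cst7, Cd244a and Cd28 keep a level there.

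Genes of the interferon-gamma response were lower in the same libraries. Of 46 interferon-gamma response genes 29 had rows, all lower, and 26 fell, against 79.7% of all rows lower and 33.9% called lower. By limma 20 of the 29 were called lower, against 20.9% of all rows. Their median log2 ratio was -1.71 against -1.44 over all rows. Fgl2, a fibrinogen-like protein induced by interferon-gamma, fell from 2108, 2001 and 1945 normalised counts in wild type to 654, 458 and 521 in Senp8+/-. Iigp1, a GTPase, fell from 571, 508 and 593 to 144, 87.4 and 87.8. In both genes, and in Cd74, the invariant chain of MHC class II, which had 35986, 30516 and 32913 in wild type and 11463, 9486 and 10259 in Senp8+/-, the wild-type libraries differed far less from each other than they did for Cxcl9.

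In a list of 22 genes of interferon-gamma and IL-12 family signalling, 6 had rows, all lower, and 4 fell, against the same 79.7% and 33.9% of all rows. Il18bp, a secreted inhibitor of IL-18, had 1581, 1891 and 999 normalised counts in wild type, in the order of Cxcl9, and 232, 146 and 257 in Senp8+/-, where replicate 2 was again the lowest. Il12rb1, a chain of the IL-12 receptor, fell from 54.5, 51.7 and 46.3 to 11.3, 9.30 and 3.21, and Il21r, the IL-21 receptor, from 321, 226 and 284 to 152, 113 and 99.6. Il2rb, given above, is the other gene called. Il27, a subunit of the cytokine IL-27, stood at 47.3 ± 8.95 in wild type and 22.8 ± 5.85 in Senp8+/- and was not called (Il27 was named after its values were seen). Ifng itself was not analysed here. Of 17 genes of lymphocyte-attracting chemokines and receptors, Cxcl9 and Ccl5 had rows, and Ccl5 fell from 1350, 990 and 1336 to 266, 253 and 289.

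Listed genes of neutrophils, conventional dendritic cells and stroma were also lower in Senp8+/-, and their part in the result was not tested. Over all rows 79.7% were lower and 33.9% were called lower. Among the wild-type libraries, replicate 3 was the lowest for 3 of 4 neutrophil, 1 of 2 dendritic cell and 2 of 8 stromal rows, against 43.4% of all rows. Of 17 neutrophil genes 4 had rows and all 4 fell, with a summed level of 1587 to 1790 normalised counts in wild type and 402 to 580 in Senp8+/-. Among them Retnlg, a secreted protein of neutrophils, had 22.8, 14.8 and 6.12 in wild type and 0 reads in every Senp8+/- library. Ly6c2, a surface protein of monocytes and neutrophils, had 399, 523 and 225 in wild type, in the order of Cxcl9, and 18.5, 29.8 and 43.9 in Senp8+/-. Prtn3, a granule protease, had 17.8, 19.0 and 6.99 against 2.06, 1.86 and 1.07, and Csf3r, the G-CSF receptor, 1147, 1155 and 1553 against 559, 385 and 357. Of 12 conventional dendritic cell genes Clec9a, a receptor for dead cells, and Ccl22, a chemokine, had rows and fell, with a summed level of 545 to 786 in wild type and 177 to 276 in Senp8+/-. Of 14 stromal and endothelial genes 8 had rows, all lower and 2 called. Col3a1, a collagen chain, fell from 491, 108 and 298 to 106, 74.4 and 66.4, and Pecam1, an endothelial adhesion protein, from 17.8, 16.9 and 25.3 to 6.18, 0.930 and 0, with a Senp8+/- mean of 2.37, or 0.465 without replicate 1. Col1a2 and Dcn, a collagen chain and a matrix proteoglycan, stood at 387 ± 206 and 257 ± 128 in wild type and at 154 ± 65.2 and 116 ± 27.0 in Senp8+/- and were not called. The 8 stromal rows had a summed level of 690 to 1770 in wild type and 391 to 720 in Senp8+/-. Those sums overlapped between the genotypes, while the sums of the neutrophil rows, the dendritic cell rows and the 4 lymphocyte genes did not. Taken singly, 89.4% of all rows did not overlap.

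Of the cell types other than lymphocytes known to express Gzmb, mast cells and basophils were represented by 1 of 16 genes. Tpsab1, a mast cell tryptase, rose from 3.96, 1.06 and 0.874 in wild type (a mean of 1.96, or 0.965 without replicate 1) to 6.18, 26.0 and 23.6 in Senp8+/-, opposite to Gzmb. Of 10 plasmacytoid dendritic cell genes Cox6a2 had a row, at 21.8, 41.2 and 19.2 in wild type and 14.4, 6.51 and 16.1 in Senp8+/-, and was not called. The 1 of 14 B cell genes with a row, Cd79b, stood at 32.7, 46.5 and 25.3 in wild type and 12.4, 12.1 and 10.7 in Senp8+/- and was not called. The 2 macrophage genes were not called. C1qa stood at 9880, 8733 and 4423 in wild type and 3119, 3146 and 4698 in Senp8+/-, and C1qc at 13190, 15610 and 6499 against 5050, 5163 and 6907, so wild-type replicate 3 overlapped the Senp8+/- libraries for both.

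Likeness to the 4 genes was scored as the Pearson coefficient between deviations from the genotype mean of log2(value + 1) for a gene and for the sum of the 4, over the 6 libraries. It is a description, and it rests largely on Senp8+/- libraries with 1 to 6 reads of the 4 genes. The ranks, that of Cxcl9 included, therefore carry much counting error. Among 280 called rows with a mean of at least 10, the highest values were those of C2 (0.963), Rasgrp2 (0.932), the long noncoding RNA Gm34084 (0.926), Serpinb2 (0.879) and Il12rb1 (0.878). Cxcl9 ranked 64 of 280, at 0.459. C2, a complement component, had 29.7, 36.9 and 18.3 normalised counts in wild type and 10.3, 3.72 and 1.07 in Senp8+/-, with a Senp8+/- mean of 5.03, or 2.40 without replicate 1. Rasgrp2, an activator of the GTPase Rap1, had 270, 280 and 223 in wild type and 113, 86.5 and 78.2 in Senp8+/-. Gm34084 had 119, 118 and 82.1 against 32.9, 33.5 and 12.9. Serpinb2, an inhibitor of plasminogen activators, was lowest in replicate 3 of each genotype, as the sum was, but had the opposite genotype difference, with 74.3, 63.3 and 47.2 in wild type and 592, 500 and 412 in Senp8+/-.

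Of 11 rows close to the 4 genes on the chromosome 2 were called, against 41.3% of all rows called in either direction. Within 1000000 bases there were 0 rows for Gzma, 4 for Gzmb (1 called), 3 for Prf1 (1 called) and 4 for Ncr1 (0 called). Beside Gzmb, Gzmc lies 24.2 kb away, and Ltb4r1, a leukotriene B4 receptor at 490 kb, fell from 63.7 ± 14.7 to 19.7 ± 2.29. Psme2, a subunit of a proteasome activator, stood at 4420 ± 2408 in wild type and 2040 ± 520 in Senp8+/-, and Nynrin at 19.1 ± 9.87 and 5.40 ± 3.36. Beside Prf1, Pald1, 14976 bases away, stood at 21.3 ± 9.78 in wild type and at 51.7 ± 5.86 in Senp8+/-, opposite in direction to Prf1, and was not called. Adamts14 at 24.4 kb stood at 19.8 ± 18.2 and 3.72 ± 1.26, and Gm5424 at 766 kb fell from 297 ± 59.0 to 81.9 ± 28.2. Beside Ncr1 the nearest row was Lilra5 at 94.3 kb, at 27.9 ± 2.64 in wild type and 12.9 ± 3.13 in Senp8+/-. Dnaaf3, Brsk1 and Zfp580 lay 178, 345 and 706 kb away and were not called.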

How the data were processed

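The submitters' processing notes name the tools HISAT2 2.0.5 and featureCounts 1.5.0-p3. Not given in the sources used here are build, annotation, strand, counting settings and test. The deposited values are a signal, reads per gene that the authors divided by a size factor for each library (0.971, 1.07 and 0.933 in Senp8+/-, 1.01, 0.947 and 1.14 in wild type). The authors' table also gives log2 fold changes, p-values, adjusted p-values and gene lengths. Dividing each column by its smallest positive value gave whole reads for 100% of values (tolerance 1e-06 of a read). The first adjusted p over its p gave 14694 corrected genes. Of the 714 identifiers, 713 were in GENCODE M21 (GRCm38) and 686 had the same start and end, so positions are named as GRCm38. Columns of other samples numbered 0.

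"Called", "rose" and "fell" mean an adjusted p under 0.05 in the authors' deposited table. limma 3.58.1 (R 4.3.3, trend) was fitted to log2(value + 1) with genotype as the only term. edgeR 4.0.16 and DESeq2 1.42.0 on recovered reads, keeping the size factors of the table, called 180 and 235 rows. The fits were tested on simulated data. Intervals are exact Poisson, and for ratios exact Clopper-Pearson. The members and gene lists were chosen with earlier results of these data known. Named are the 4 genes, Cxcl9, all rows of the killing, NK and T cell lists, the 4 rows of smallest p in each other list, the 5 most alike called rows and rows within 1000000 bases. Promoters are from RefSeq (GRCm38.p6), matched by symbol for 5 of 5 genes.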

Additional observations from a re-analysis of the deposited data

How the results depend on the processing

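The 4 genes and Cxcl9 kept their direction in every alternative that gave a value, and 53 of 64 single-gene alternatives kept an adjusted p under 0.05. Setting the libraries to 1 common median of the 714 rows moved the median log2 difference of all rows by 0.963 and left 21.7% of limma calls lower, against 84.7% at the deposited scaling. The rows were selected on the genotype comparison and 79.7% were lower, so equal medians remove the typical difference by construction. This setting therefore cannot judge the direction of the calls. Under it Prf1 was at -2.56 (adjusted p = 0.123, limma), and 4 listed genes turned sign, Psmb8, Psmb10, Pdgfra and C1qc. Leaving out 1 library at a time gave 0 to 4 of the 4 genes past the threshold in limma, and log2 differences of -5.33 to -4.16 for Gzma, -3.97 to -3.50 for Gzmb, -3.87 to -2.69 for Prf1, -3.73 to -3.26 for Ncr1 and -4.10 to -3.40 for Cxcl9. Prf1 passed in 1 of these 6 fits. Fewer samples enter them. Ncr1 gave no value with rows of a mean under 10 left out. Same-numbered libraries did not deviate together (correlations of 0.0101, 0.0441 and -0.243 over the rows), and not every library correlated best with its own number. With a replicate block, 4 of the 4 genes passed in limma, at the same log2 differences, and 174 rows were called in place of 176. Library depths are unknown here, and a gene with 0 reads in a library cannot be placed below about 3 normalised counts.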

Other observations

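Klrb1b and Cxcl5 stand in none of the gene lists and were named after their values were seen. Klrb1b, an NK cell receptor gene of the Nkrp1 family, had 9.90, 6.33 and 4.37 normalised counts in wild-type replicates 1, 2 and 3 and 0, 0 and 1.07 in Senp8+/-, and was not called (adjusted p = 0.144 in the authors' deposited table). Cxcl5, a chemokine for neutrophils on the same chromosome as Cxcl9, had 30.7, 19.0 and 4.37 in wild type and 0, 1.86 and 2.14 in Senp8+/- (adjusted p = 0.0351 in the authors' deposited table). Both were lowest in wild-type replicate 3, as were Gzma, Gzmb, Prf1 and Ncr1, and 43.4% of all 714 rows. The counts of Klrb1b are low, so its order among the wild-type libraries is uncertain.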
